A study of Mus musculus with 2 samples.

Results

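The miR-130 and miR-301 family is made here of 4 microRNA (miRNA) hairpins of the mouse genome, Mir130a, Mir130b, Mir301 and Mir301b, among the 1973 miRNA genes counted in the study. They were chosen by their names, with their measured levels in these libraries known, so their levels and their order are given as descriptions and not tested. The study sequenced small RNA below 30 nucleotides from mouse hindbrain at embryonic day 12.5, in the B6NCrl strain. The embryos were healthy, of both sexes, and carried no labelled treatment or allele. There is 1 group with 2 libraries: replicate 1 is a pool of 120 embryos and replicate 2 a pool of 88, and the labels call them biological replicates. Both pools carry the same donor label, so a difference between the libraries measures only the spread between these pooled samples, part of which may be technical.

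A miRNA gene is transcribed as a longer RNA that is cut to a hairpin and then to a short duplex, and an arm of that duplex is loaded into an Argonaute protein. The loaded miRNA pairs with target messenger RNAs mainly through its seed, bases 2 to 8 from its 5′ end, and lowers their translation and stability. Members of a family share the seed and can therefore pair with overlapping sets of targets. The family is known from blood vessel growth, from proliferation and from the control of TGF-beta and PPAR-gamma signalling, and its 3′ arms (named 3p) carry the family seed.

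The mature 3p sequences of 3 members show what makes them a family and where they part. Sequences are from RefSeq (GRCm38.p6), written 5′ to 3′ with the seed in capitals.
miR-130a-3p (Mir130a): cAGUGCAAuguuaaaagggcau
miR-130b-3p (Mir130b): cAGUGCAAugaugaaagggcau
miR-301a-3p (Mir301): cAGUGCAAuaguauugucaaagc
All 3 begin with the same 9 bases. From there miR-130b-3p differs from miR-130a-3p by the substitutions U11A and A13G only, with positions counted from the 5′ end and the base of miR-130a-3p first. miR-301a-3p differs from miR-130a-3p at 10 of 22 positions, counted from the 5′ end without gaps, and from miR-130b-3p at 11.

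The opposite arms (5p) of the 4 hairpins carry other seeds, in capitals, and those of the miR-301 genes match each other.
miR-130a-5p (Mir130a): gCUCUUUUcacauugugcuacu
miR-130b-5p (Mir130b): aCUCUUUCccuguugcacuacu
miR-301a-5p (Mir301): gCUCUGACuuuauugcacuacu
miR-301b-5p (Mir301b): gCUCUGACuagguugcacuacu
miR-301a-5p and miR-301b-5p share a seed and differ at 3 of 22 positions (U10A, U11G and A12G, with the base of miR-301a-5p first), whereas the seeds of the 5p arms of Mir130a and Mir130b differ from theirs and from each other. The counts sum the arms of a hairpin, so the values below do not say how many reads came from the arm with the family seed.

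The hairpins show the family seed, in capitals, once in each of the 4 genes, Mir301b included.
Mir130a hairpin: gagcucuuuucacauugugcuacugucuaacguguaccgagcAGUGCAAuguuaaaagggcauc
Mir130b hairpin: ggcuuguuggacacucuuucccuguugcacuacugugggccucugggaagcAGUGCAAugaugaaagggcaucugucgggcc
Mir301 hairpin: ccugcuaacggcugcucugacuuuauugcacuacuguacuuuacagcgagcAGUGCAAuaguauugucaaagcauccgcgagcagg
Mir301b hairpin: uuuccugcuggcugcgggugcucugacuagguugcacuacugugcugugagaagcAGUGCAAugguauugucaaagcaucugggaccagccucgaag
The longest identical stretch between any pair of these hairpins was 16 bases, between Mir301 and Mir301b. No member had a 20-base stretch in common with any other annotated miRNA hairpin. The longest such stretch of Mir130a was 17 bases, with Mir6389. Reads that fit several genomic positions are in no gene's count, and the loss of reads of these 4 genes by this route was not measured.

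The members lie at 3 loci of the GRCm38 (mm10) assembly. Mir130a (ENSMUSG00000065484.1) is at chr2:84741115-84741178 on the minus strand, inside no other annotated gene on that strand, 990 bases from Gm19426 and 2459 bases from Ypel4, its nearest annotated neighbours. Mir130b (ENSMUSG00000065572.1) is at chr16:17124061-17124142 and Mir301b (ENSMUSG00000076288.1) at chr16:17124400-17124496, both on the minus strand in intronic sequence of 2610318N02Rik. The pair is separated by 257 bases, and Mir301b comes first in the direction of transcription. Mir301 (ENSMUSG00000065589.1) is at chr11:87113004-87113089 on the plus strand, in an intron of Ska2, whose protein acts at the kinetochore in mitosis. No exon of a host gene overlapped any of the 3 intronic hairpins.

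All 4 members were among the 371 miRNA genes with 10 or more counts in each library, called detected here. Own-strand counts came to 2764276 for replicate 1 and 3946444 for replicate 2, and levels are given per 1000000 of these (CPM). The tissue label was checked with marker miRNAs. Mir10a, of the Hox clusters that pattern the hindbrain, had 26347 and 25880 CPM in replicates 1 and 2. Mir137, of neurons, had 3263 and 3342 CPM. Each was the highest gene of its list by the reads counted, and the neural list of Mir137 summed to 5418 and 5691 CPM. The 3 Mir124a genes that define neurons ranged only from 0.760 to 10.5 CPM, and each shares a 20-base stretch with another hairpin. Markers of other cell types were present, with Mir126a of endothelium at 25987 and 23442 CPM. The mesenchyme list summed to 12931 and 10846 CPM, more than the neural list as counted in both libraries. Most of that sum was Mir214, at 12145 and 9714 CPM. Mir199a-1, Mir199a-2 and Mir199b of the list were instead higher in replicate 2, by 0.58, 0.49 and 0.53 on the log2 scale. These Mir199 genes, and Mir9-2, Mir9-3, Mir128-1 and Mir128-2 of the neural list, share a 20-base stretch with another hairpin. Both sums are therefore lower limits, and their order with the lost reads was not measured. The epithelial list summed to 6159 and 2856 CPM and the skeletal muscle list to 151.6 and 592.4 CPM.

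The 4 genes together held 4.46% ± 0.0183 (SD, n = 2) of the assigned counts. The share was 4.47% for replicate 1, with a 95% interval of 4.44% to 4.49% by the Clopper-Pearson method, and 4.44% for replicate 2, with an interval of 4.42% to 4.46%. These intervals cover counting error only. In counts this was 123544 reads in replicate 1 and 175359 in replicate 2. The intervals of the libraries overlapped.

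Mir130a, the gene outside any host, was the highest member. Its level was 32860 CPM in replicate 1, from 90835 reads, and 32101 CPM in replicate 2, from 126684 reads (mean 32481 ± 537 CPM, SD, n = 2). It ranked 5 among all miRNA genes in each library, by the reads that were counted. Of the 1973 genes, 923 share a 20-base stretch with another hairpin and can lose reads that fit both, whereas no member does. The place of each member among all genes may therefore be nearer the top than with those reads. By how much was not measured. The gene above Mir130a by mean level was Mir17, with 48251 and 53339 CPM, and the gene below was Mir99b, with 30984 and 27198 CPM. Neither overlapped its range. Among the 116 detected genes that lie in no host gene on their strand, none was higher than Mir130a, and the median of that class was 266 CPM.

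Mir130b came second in the family. Its level was 8743 CPM in replicate 1, from 24169 reads, and 9112 CPM in replicate 2, from 35960 reads (mean 8928 ± 261 CPM, SD, n = 2). It ranked 28 and 26 in the libraries. Its neighbours in the order, Mir143 (8223 and 10663 CPM) and Mir92b (10751 and 7092 CPM), overlapped its range, so its place among them was not resolved by these libraries. Of the 168 detected intronic genes, 13 were higher than Mir130b.

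Mir301, which encodes miR-301a, was next. Its level was 2794 CPM in replicate 1, from 7722 reads, and 2942 CPM in replicate 2, from 11609 reads (mean 2868 ± 105 CPM, SD, n = 2). It ranked 66 and 62. Its neighbours Mir139 (3642 and 2929 CPM) and Mir379 (2715 and 2927 CPM) overlapped its range. Of the 168 detected intronic genes, whose median was 175 CPM, 27 were higher than Mir301.

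Mir301b was the lowest member. Its level was 296 CPM in replicate 1, from 818 reads, and 280 CPM in replicate 2, from 1106 reads (mean 288 ± 11.1 CPM, SD, n = 2). It ranked 160 and 164, between Mir667 (260 and 326 CPM) and Mir135a-1 (298 and 274 CPM), which both overlapped its range. Within the family, by contrast, no ranges overlapped, and the order Mir130a, Mir130b, Mir301, Mir301b was the same in both libraries. Each read covers a mature miRNA and counts were not divided by length. Per base of hairpin the order was unchanged. How well each sequence was captured in the libraries was not tested.

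**Figure D1:**
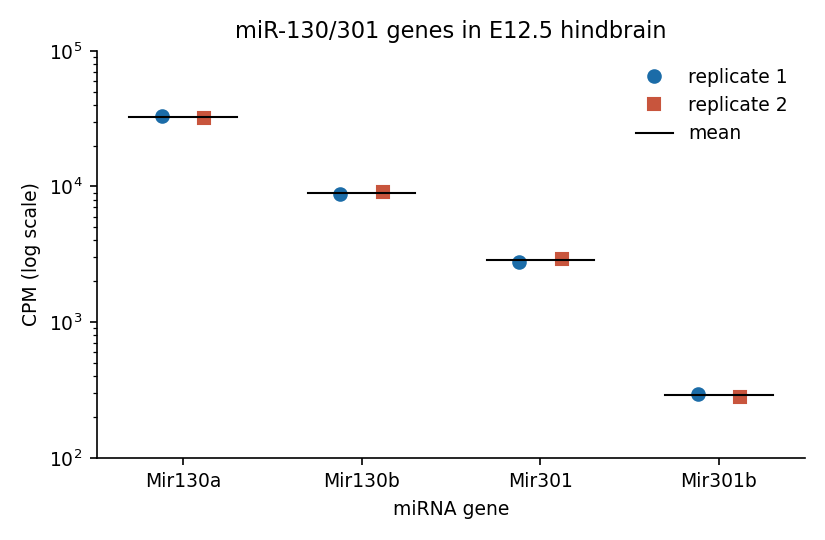
Level of each family gene in CPM (log axis) in replicate 1 (circles) and replicate 2 (squares), with the mean of both as a line. The members step down from 32481 CPM for Mir130a to 288 CPM for Mir301b, and the 2 libraries lie close together at each step.

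**Figure D2:**
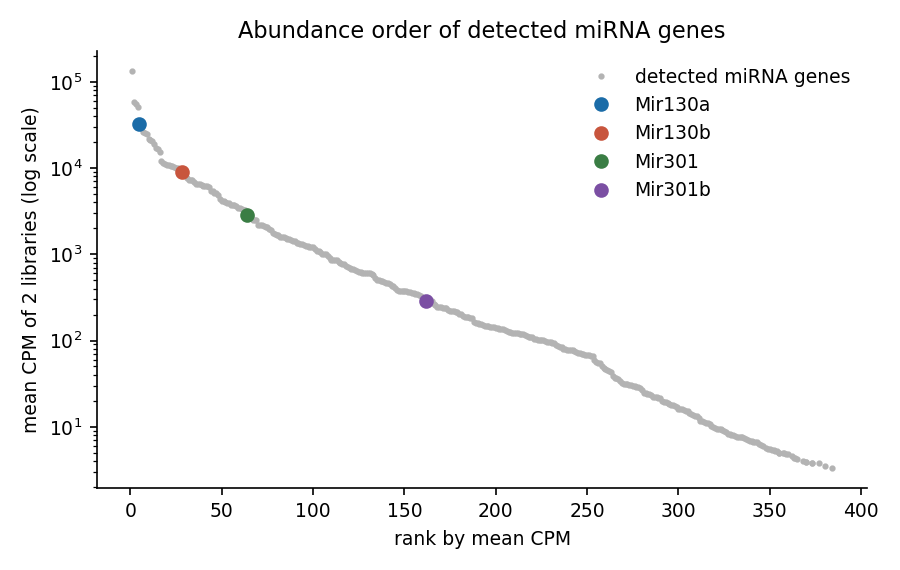
Mean CPM (log axis) of the 371 detected miRNA genes against their rank by mean CPM, with the 4 members in colour. Mir130a stands at rank 5, Mir130b at 28, Mir301 at 64 and Mir301b at 162.

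The genes nearest to each member in level were found by the distance of log2(CPM + 1) over the 2 libraries, which is a likeness of level in this tissue and not of pattern across conditions. For Mir130a these were Mir99b (distance 0.25) and Mir10a (0.45). For Mir130b they were Mir181d (0.11) and Mir143 (0.24). Mir379 (0.04) and Mir484 (0.05) were nearest to Mir301. Mir135a-1 (0.04) and Mir3074-1 (0.18) were nearest to Mir301b, and both of these share a 20-base stretch with another hairpin.

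Mir130a gave most of the family's counts. Its part was 72.9% ± 0.906 (SD, n = 2), made of 73.5% in replicate 1 (95% interval, Clopper-Pearson, 73.3% to 73.8%) and 72.2% in replicate 2 (72.0% to 72.5%). Mir130b held 20.03% ± 0.667, Mir301 6.44% ± 0.261 and Mir301b 0.646% ± 0.0222 (SD, n = 2 each). The exact intervals of the Mir130a share did not overlap between the libraries.

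Mir130a was set against the other loci within each library. Over the sum of Mir130b, Mir301b and Mir301 its counts were 2.78-fold higher in replicate 1 and 2.60-fold higher in the other library, a log2 ratio of 1.43 ± 0.07 (SD, n = 2). Against the Mir130b and Mir301b pair alone it was 3.64-fold and 3.42-fold higher. Against Mir301 in Ska2 it was 11.8-fold and 10.9-fold higher. The pair in turn exceeded Mir301 by 3.24-fold and 3.19-fold. The genes named miR-130 exceeded those named miR-301 by 13.5-fold and 12.8-fold, so that reads of the hairpins with the miR-301 3′ part made up 6.91% and 7.25% of the family. Each of these ratios differed between the libraries by far less than it differed from 1.

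The partners Mir130b and Mir301b were far apart in level although they lie in the same intronic region. Mir130b had 29.5 times the counts of Mir301b in replicate 1 and 32.5 times in replicate 2, a log2 ratio of 4.95 ± 0.10 (SD, n = 2). Mir301, which lies on another chromosome, also exceeded Mir301b, by 9.44-fold and 10.5-fold. For scale, 112 neighbouring pairs of detected miRNA genes on a strand had starts within 10 kb, and their median difference was 2.79 on the log2 scale, or 6.93-fold. Of the 111 other pairs, 82 (73.9%) had partners closer in level than Mir130b and Mir301b. Genes that were not detected are in no pair. Clustered genes can belong to several pairs, many of them on chromosome 12, so the pairs are not independent. Some of these pairs hold genes that share a 20-base stretch with another hairpin and can lose reads. Without such genes, 59 of 73 other pairs (80.8%) were closer, and the median was 2.64. Pairs of about the same ratio, named after their values were seen, were Mir34c with Mir34b (4.85 on the log2 scale) and Mir377 with Mir541 (5.07). These values are a description without a test.

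**Figure D3:**
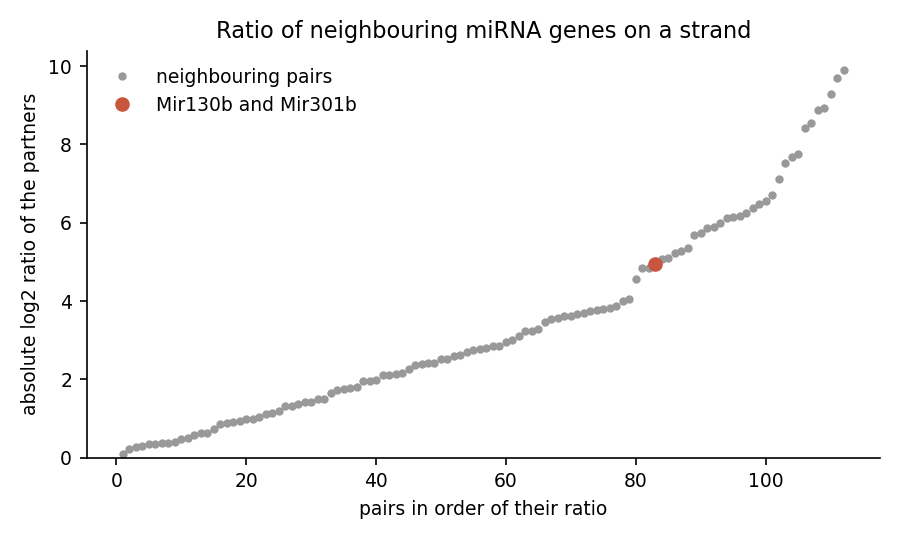
Absolute log2 ratio of the partners (mean of both libraries) for 112 neighbouring pairs of detected miRNA genes on a strand, in order of that ratio. The Mir130b and Mir301b pair, at 4.95, lies above the median of 2.79 and below the most uneven pairs.

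The family seed AGUGCAA occurs in 7 of the 1738 mature entries of the RefSeq table, and miR-301b-3p was not part of that search. Beside miR-130a-3p, miR-130b-3p and miR-301a-3p these are 4 miRNAs of other genes, shown because they could add to the same seed.
miR-130c (Mir130c): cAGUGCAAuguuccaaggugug
miR-6341 (Mir6341): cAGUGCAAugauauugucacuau
miR-6389 (Mir6389): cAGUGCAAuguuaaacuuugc
miR-721 (Mir721): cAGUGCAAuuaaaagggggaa
Mir130c, Mir6341 and Mir6389 (found by this search, outside the listed relatives) had 0 counts in both libraries, which for each gene bounds the level at 1.09 CPM (replicate 1) and 0.760 CPM (replicate 2). Mir721 was not analysed here. Among the genes with this seed and a value, the counts therefore came from the 4 members.

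Other families have a seed that overlaps this one when shifted by a base. The miR-148 and miR-152 genes have the seed CAGUGCA and the miR-19 genes the seed GUGCAAA. Mir148a had 446 and 422 CPM, Mir148b 214 and 266 CPM and Mir152 90.4 and 105 CPM in replicates 1 and 2. The 4 family genes together exceeded these 3 by 59.6-fold and 56.0-fold. Mir19a, of the miR-17-92 cluster, had 83.6 and 124 CPM, while Mir19b-1 had 23.5 and 21.3 CPM and Mir19b-2 10.1 and 6.08 CPM. Mir19b-1 and Mir19b-2 share a 20-base stretch with another hairpin, so reads that fit both are in neither value. Those values are therefore lower limits for the miR-19b genes, and the family was not set against them. A search of all mature entries for seeds that overlap by 6 bases also found Mir350 and Mir291b, outside the listed relatives, with the seed AAGUGCA on the 5p arm of Mir350 and the 3p arm of Mir291b. Mir350 had 639 and 903 CPM, more than Mir148a, Mir148b, Mir152, Mir19a or Mir301b in both libraries. These counts sum both arms, so the part of Mir350 from its 5p arm is not known. Mir291b had 2 counts in replicate 1 and 3 in replicate 2.

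The family is known from endothelium, so its leading gene was set beside the vascular miRNAs. Mir130a was above Mir126a, the endothelial miRNA, with ratios of 1.26 and 1.37 in replicates 1 and 2. Mir126a was lower in replicate 2 by 0.15 on the log2 scale and Mir130a by 0.03. The direction of Mir130a depended on the scaling (-0.06 to 0.01), so it was not resolved. Mir143 and Mir145a, of the smooth muscle and pericytes around vessels, were higher in replicate 2 by 0.37 and 0.46. The cells that hold each miRNA cannot be told from whole tissue, where more cells of a type and more RNA per cell cannot be told apart either.

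The libraries differed little in any member. Counts of each gene were compared by an exact two-sided binomial test, adjusted by Benjamini-Hochberg over the 393 genes whose mean count reached 10. A gene was called where the adjusted p was under 0.05 and the difference was 2-fold or more. None of the 4 members was called, beside 14 of 393 genes (3.56%) in all. The test compares 2 libraries of the same group and no condition. Mir130a was lower in replicate 2 by 0.03 on the log2 scale (adjusted exact p = 2.81e-07). Mir130b was higher by 0.06 (adjusted exact p = 2.24e-06) and Mir301 by 0.07 (adjusted exact p = 0.00107). The log2 ratio of Mir301b was -0.08 (adjusted exact p = 0.338). Without the minimum of 2-fold, 3 of 4 members passed the adjusted threshold, beside 203 of 393 genes (51.7%), and 3 of 4 had an unadjusted p under 0.05, beside 220 of 393 (56.0%).

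These exact tests see counting error alone, and the differences they pass were small. The median over the 4 members was 0.01 on the log2 scale, beside -0.04 over all genes tested. In absolute terms the members differed by 1.02-fold (Mir130a), 1.04-fold (Mir130b), 1.05-fold (Mir301) and 1.06-fold (Mir301b). On the log2 scale these are 0.03, 0.06, 0.07 and 0.08. The median for the 105 genes at 1000 CPM or more, which include every member but Mir301b, was 0.17 on that scale. Between 21 and 63 of the other tested genes differed less than a given member. The negative binomial exact test of edgeR takes the spread between the libraries from all genes tested (a coefficient of variation of 17.3%). By it no member passed at an unadjusted p under 0.05, beside 15 of 393 genes (3.82%). That spread comes from these same 2 libraries, so differences as small as those of the members could hardly pass. Nothing is concluded from this outcome. The direction of Mir130a depended on the scaling, from -0.06 to 0.01 over 7 ways of scaling, and that of all 4 genes together from -0.04 to 0.04. Mir130b (0.03 to 0.10) and Mir301 (0.05 to 0.12) stayed above 0 and Mir301b (-0.11 to -0.03) below 0 in all 7. All 7 rest on the same 2 libraries, so a constant sign does not resolve a direction. Mir301b did not pass the exact binomial test either (adjusted exact p = 0.338).

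**Figure D4:**
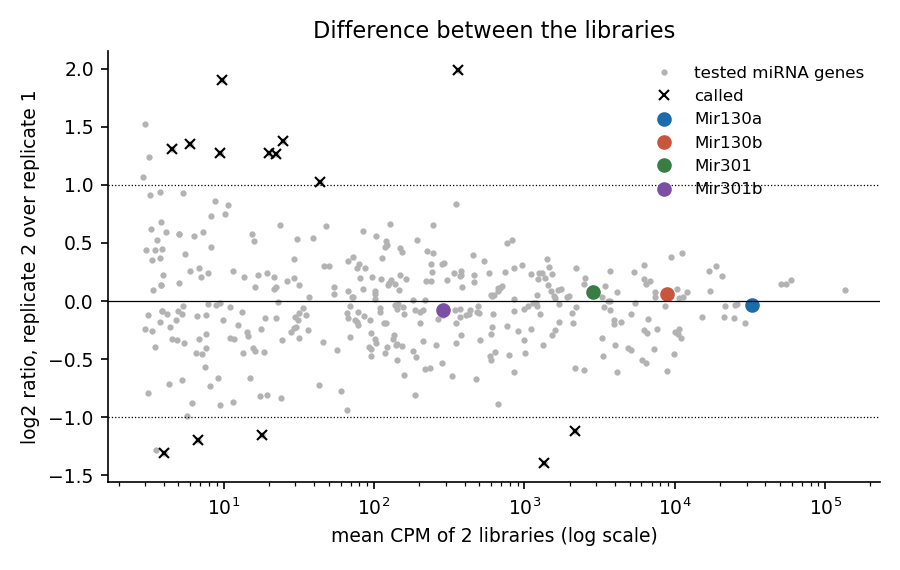
Log2 ratio of replicate 2 over replicate 1 against mean CPM (log axis) for the 393 tested miRNA genes, with called genes as crosses and the 4 members in colour. The members lie between -0.08 and 0.07, close to the line at 0, and inside the dotted lines that mark 2-fold.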

How the data were processed

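For each library the authors deposited a table of raw read counts per miRNA gene. Per the deposited text files, reads were aligned to mm10 and counted over GENCODE M4. Which aligner, trimming and counter were used is not given in the sources used here. Columns hold both strands together and each strand; the column taken as the gene's own strand, inferred because it holds nearly all counts, was used. The 4 summary rows stayed out of the totals. In replicates 1 and 2, unmapped reads were 15.7% and 16.2%, reads at several positions 32.7% and 33.4%, and reads outside the own strand of miRNA genes 5.12% and 4.81% of 5947846 and 8656439 reads.

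Gene IDs without versions were matched to GENCODE M21 (1894 of 1973), which gave symbols, positions and hosts. RefSeq entries were matched by symbol for all 4 members. A 20-base stretch was searched among all M21 hairpins in the same orientation.

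CPM used own-strand totals. Ratios between libraries had 0.5 added to each count. TMM factors and the common dispersion (intercept only) came from edgeR 4.0.16 and size factors from DESeq2 1.42.0, in R 4.3.3, and the rest from SciPy 1.17.1, pandas 2.3.3 and numpy 2.4.6 under Python 3.11.15, with figures from matplotlib 3.10.9. The binomial test was checked on simulated counts that held counting error only. The p-values of the negative binomial test were not checked this way. A count of 0 is bounded by 3 counts. Read duplicates cannot be told from separate molecules.

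The members, lists and tests were chosen with earlier results of these data known. Named genes are the members, the 2 genes nearest each in level, and the listed seed relatives and vascular miRNAs. Neighbours in rank, marker lists and genes stated as such were named beside these. Mir126b, Mir142 and Mir9-1 of the lists were not analysed here.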

Additional observations from a re-analysis of the deposited data

How the results depend on the processing

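Ratios within the family are taken within a library, so a change of library size cancels and cannot alter them. Counting both strands together also kept them to the printed digits, with 0 or 2 opposite-strand reads of any member in a library. The pair comparison kept Mir130b and Mir301b above the median pair in each of 4 other settings. CPM moved with what it was counted over. With both strands together Mir130a had 31713 CPM and the family 4.35%. Without Mir99a, the most abundant gene, the values were 37539 (Mir130a), 10320 (Mir130b), 3315 (Mir301) and 332.9 CPM (Mir301b) and 5.15% for the family. Without genes that share a 20-base stretch they were 35304, 9703, 3117 and 313 CPM and 4.84%. Per 1000000 of all tallied reads they were 14953, 4109, 1320 and 132.6 and 2.05%. Per 100 bases of hairpin the share of Mir130a in the family was 77.8%, its log2 ratio to the other 3 was 1.81 and that of Mir130b to Mir301b 5.20. Without a minimum fold 3 members were called instead of 0, and every other setting run called 0. Those settings kept the 2-fold minimum, and no member differed by more than 0.12 on the log2 scale under any scaling. Their outcome was therefore fixed by that minimum. In pairs with at least 100 counts, 82.6% of the others were closer in level. With a library left out the values are those of the remaining library, and the test between libraries has no value. TMM and DESeq2 factors moved no mean level by more than the spread between the libraries. Both were scaled around the average of the libraries, so the mean level could hardly move. CPM per base of hairpin was used only for values within the family. With 2 libraries the SD has 1 degree of freedom, so the errors above are themselves uncertain.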
